A study of Mus musculus with 3 samples.

Results

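A group of 10 genes of epithelial defence was followed in mouse colon organoids, of 32285 genes in the deposited matrices, each taken by its symbol: Saa1, Saa2, Saa3, Reg3b, Reg3g, Lcn2, Nos2, Duox2, Nox1 and Pigr. The organoids were measured by sc-RNAseq in 3 libraries, 1 per condition: untreated, IFN-γ for 24 h and IFN-γ for 48 h. All were epithelial cells of the colon, sorted alive, and the IFN-γ dose of 50 ng/ml comes from the organoid methods of the study. Those methods name C57bl/6 mice and the reporter lines Krt20CreErt2/Rosa26-tdTomato and Axin2CreErt2/Rosa26-tdTomato as donors of organoids, and mice of either sex between 6 and 12 weeks old, without saying which gave these libraries. In its results the study describes its colon organoids as coming from untreated wild-type mice. It describes the sequenced cultures as grown in full medium, which it uses to enrich stem and progenitor cells. The labels add no strain, age or number of mice and name no separate cultures, so the library and the treatment cannot be told apart, no test across samples was possible, and every interval below covers counting error only.

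The 3 serum amyloid A genes, Saa1, Saa2 and Saa3, encode acute-phase apolipoproteins that bind retinol and bacteria and are made by liver and by gut epithelium in contact with microbes. Reg3b and Reg3g are bactericidal C-type lectins, Lcn2 binds the iron-carrying siderophores of bacteria, and Pigr carries dimeric IgA across the epithelium. Nos2 makes nitric oxide, while Duox2 and Nox1 make hydrogen peroxide and superoxide at the epithelial surface. Organoids hold epithelium without the microbes and immune cells that drive many of these genes in the animal.

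The kept cells numbered 1058 untreated, 917 at 24 h and 2934 at 48 h, and held 49801935, 71077817 and 47243500 UMIs. The median depth was 33550, 68784 and 10772 UMIs per cell, so shares of cells with a UMI are given after thinning each cell to 5000 UMIs, except where stated. The libraries shared between 1 and 4 cell barcodes pairwise. As a check of the treatment labels, Irf1, a transcription factor that IFN-γ induces, stood at 23.5 UMIs per 1000000 UMIs (CPM) untreated, 331 at 24 h and 310 at 48 h. Every gene of the colonocyte, goblet and enteroendocrine lists had UMIs in each library. Among markers of other cells, Ptprc, Elane, Mpo, Col1a1 and Col3a1 had 0 UMIs in each library, while the summed stromal and endothelial list was at 2.11, 11.3 and 17.8 CPM and 4 or 5 of its 8 genes were at 0. The neutrophil list held 46, 74 and 71 UMIs in all, and the list of other leukocytes stood at 27.7, 30.2 and 18.9 CPM. The part of these markers in the results was not tested.

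The regions upstream of the serum amyloid genes are shown because Saa1 and Saa2 lie side by side and were found in the same cells, while Saa3, in the same cluster of genes on chromosome 7, was spread over more classes. Each run is the 250 bases before the RefSeq start (GRCm38.p6, 5′ to 3′ on the strand of the gene), and capitals mark matches to a C/EBP-type motif (TTGCNNAA or its reverse TTNNGCAA) or to an interferon-stimulated response element (GAAA and GAAA with NN between, or its reverse, TTTC and TTTC with NN between). Saa1 is on the minus strand at chr7:46742981-46743230, Saa2 on the plus strand at chr7:46751583-46751832 and Saa3 on the minus strand at chr7:46715677-46715926.
Saa1: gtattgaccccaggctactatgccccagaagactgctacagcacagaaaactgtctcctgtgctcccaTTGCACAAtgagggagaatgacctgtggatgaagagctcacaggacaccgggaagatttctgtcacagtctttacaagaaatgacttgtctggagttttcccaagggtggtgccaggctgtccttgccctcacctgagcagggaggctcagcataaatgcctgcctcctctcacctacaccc
Saa2: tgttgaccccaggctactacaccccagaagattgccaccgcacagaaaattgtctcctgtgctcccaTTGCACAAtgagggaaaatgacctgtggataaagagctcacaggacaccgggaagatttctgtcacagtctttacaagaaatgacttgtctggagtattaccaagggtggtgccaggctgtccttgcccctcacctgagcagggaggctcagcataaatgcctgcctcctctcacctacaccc
Saa3: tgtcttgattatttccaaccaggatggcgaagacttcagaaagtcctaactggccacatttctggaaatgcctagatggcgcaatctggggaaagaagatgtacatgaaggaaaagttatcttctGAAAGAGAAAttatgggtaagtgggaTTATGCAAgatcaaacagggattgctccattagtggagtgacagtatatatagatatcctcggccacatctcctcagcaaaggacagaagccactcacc
Aligned end to end, the Saa1 and Saa2 windows matched at 94.8% of 251 positions and the Saa1 and Saa3 windows at 52.2% of 295. A C/EBP-type match stood 182 bases before the start of Saa1 and 183 before that of Saa2, and Saa3 held 1 at 99 bases beside an interferon-type match at 125 bases. Of 32851 RefSeq windows of this length, 9.56% held a C/EBP-type match and 2.98% an interferon-type match. A gamma-activated site (TTCNNNGAA), held by 7.02% of windows, was found among the members only before Reg3b, 129 bases from its start. These matches describe letters, not binding. A window was given for 9 of the 10 members, and Nos2 had none.

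Of the 10 members, 6 had at least 50 UMIs over the libraries compared and 4 (Saa2, Reg3b, Reg3g and Lcn2) did not. At 24 h, 1 of the 6 was higher by over 2-fold (Nos2), against 2.97% of 14230 genes with enough UMIs, and 4 were lower (Saa1, Saa3, Nox1 and Pigr), against 19.9%. At 48 h, 1 was higher (Nos2), against 4.18% of 14206 genes, and 3 were lower (Saa1, Nox1 and Pigr), against 12.1%. The median log2 ratio of the members was -1.48 at 24 h and -0.74 at 48 h, beside -0.38 and -0.14 over all genes. Both times share the untreated library. Between 24 h and 48 h, Saa3 was higher by over 2-fold and Saa1 lower, beside 7.33% and 1.31% of 13772 genes. The Saa3 ratio, 1.02, was within 2-fold under most alternatives (0.54 to 0.97).

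**Figure D1:**
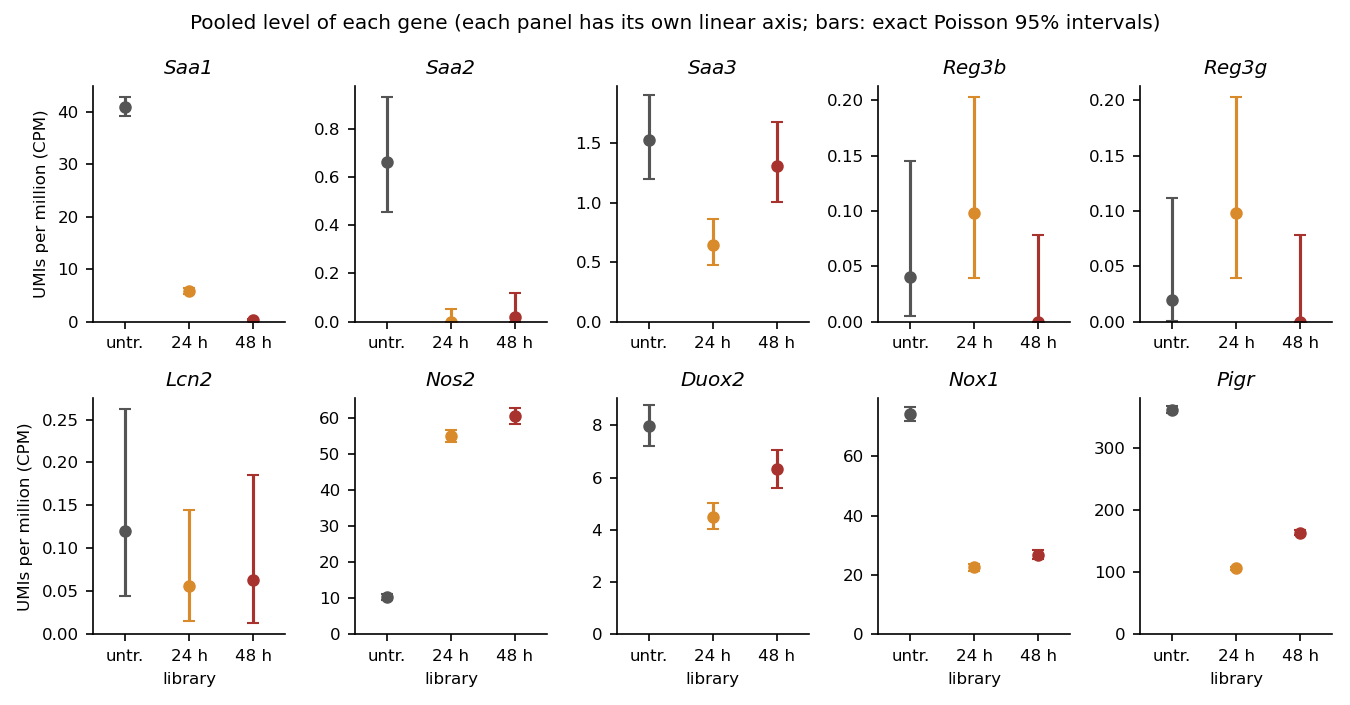
Pooled level of each member (CPM, linear axes that differ between panels) in the untreated, 24 h and 48 h libraries, with exact Poisson 95% intervals. Saa1 goes from 41.0 CPM to 0.318 CPM and Nos2 from 10.3 to 60.6 CPM, while Reg3b, Reg3g and Lcn2 are at most 0.120 CPM in each library.

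Saa1, the major acute-phase serum amyloid, lies at chr7:46740497-46742980 (GENCODE vM21). It stood at 41.0 CPM untreated (2041 UMIs), 5.89 CPM at 24 h (419 UMIs) and 0.318 CPM at 48 h (15 UMIs). The log2 ratio to untreated was -2.80 at 24 h (95% interval -2.95 to -2.65) and -7.01 at 48 h (-7.85 to -6.29), that is 6.95-fold and 129-fold lower. The intervals of the 3 levels do not overlap, but they count each UMI as independent. Since 1 cell held 285 of the 419 UMIs at 24 h, they are too narrow to measure how far the levels are apart.

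Very few cells carried these transcripts. In the untreated library, 46 of 1058 cells (4.35% without thinning, exact interval 3.20% to 5.76%) had a Saa1 UMI. There, 1 cell held 598 of the 2041 UMIs (29.3%), 3 cells held more than 50% of them and 10 cells held 90.3%. At 24 h, 15 cells had a UMI and 1 cell held 285 of the 419 (68.0%), and at 48 h no cell had more than 3 UMIs. After thinning, the share of cells with a Saa1 UMI was 2.36%, 0.545% and 0.341%, beside 0 of 278, 0 of 420 and 1 of 813 proliferating-like cells. The ratio at 24 h therefore rests on few cells: without the 1% of cells with the most Saa1 it was -5.74, on few remaining UMIs. At 48 h that 1% took in every cell with Saa1. The value there, -5.88, is therefore only a limit set by the floor of 3 counts, and it cannot be compared with 24 h. Barcodes under 2000 UMIs, taken here as a rough measure of free RNA, held Saa1 at 9.70, 4.96 and 0.470 CPM. The smallest barcodes available had 1390, 851 and 1624 UMIs, so these barcodes were not shown to be free of cells. At 48 h the level in cells was thus no higher than in those barcodes, and at 24 h the intervals of the cells and of the barcodes overlap.

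**Figure D2:**
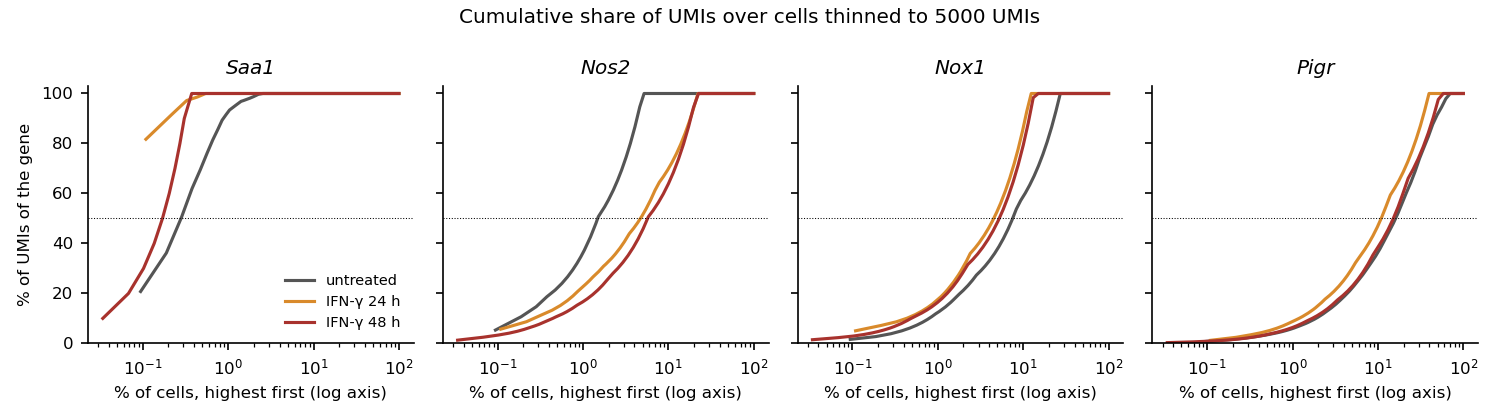
Cumulative share of a gene's UMIs (vertical axis, %) over cells thinned to 5000 UMIs and ordered from the highest (horizontal axis, % of cells, log scale), for Saa1, Nos2, Nox1 and Pigr in the 3 libraries. The Saa1 curves reach 50% (dotted line) with 3 cells untreated and 1 cell at 24 h, while Pigr needs 171 and 100 cells; at 48 h Saa1 has only 10 thinned UMIs.

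By the share of thinned UMIs in the 10% of cells with the most, concentration did not set the members apart. Of the 4 members with at least 50 thinned UMIs, 3 had more than 50% of them in those cells in each library, beside 68.4%, 66.5% and 70.5% of all genes, as low counts alone place most UMIs in few cells. The 4 were Saa1, Nos2, Nox1 and Pigr untreated and at 24 h, and at 48 h Duox2 took the place of Saa1. The variance of thinned UMIs over their mean was far larger for Saa1: it was 37.1 untreated and 48.3 at 24 h, where the median gene had 1.12 and 1.09. For Pigr it was 2.75 and 1.62, for Nox1 1.76 and 1.48, and for Nos2 1.73 and 3.68. At 48 h, on 10 thinned UMIs, Saa1 stood at 0.997, beside 1.05 for the median gene.

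Most Saa1 UMIs were in colonocyte-like cells. This class is 1 cluster, found without the members among the clustering genes and led by Krt20, Slc26a3 and Car1, with 185, 121 and 301 cells. It held 99.0% of Saa1 UMIs untreated, 99.0% at 24 h and 73.3% (11 of 15) at 48 h, and its level was 181, 32.3 and 1.57 CPM, so Saa1 was lower within it too, by a log2 ratio of -2.48 (-2.64 to -2.33) and -6.85 (-7.85 to -6.01). In the other cells Saa1 stood at 0.544, 0.0687 and 0.0995 CPM. Each of the 10 untreated cells with the most Saa1 was in this cluster, had 12 to 237 UMIs of Aqp8 (a water channel of surface colonocytes) and 5 to 69 of Krt20, and had 0 UMIs of Nos2. Of all 46 untreated cells with Saa1, however, 9 (19.6%) had Nos2, beside 19.1% of all cells. At 24 h, 12 of 15 (80.0%) had it, beside 60.6%, and at 48 h 7 of 13 (53.8%), beside 39.2%. These shares with Nos2 were counted without thinning, so they are not matched for depth between libraries or between cells.

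Within the untreated colonocyte-like cells, Saa1 UMIs were mostly in cells with Aqp8, a split chosen after those cells had been seen, from 16 markers that did not all behave so. The 46 untreated cells with Saa1 were counted over all classes and without thinning, so they are not colonocyte-like cells alone. Of these 46, 56.5% had Aqp8 against 31.4% of colonocyte-like cells, while 56.5% against 70.3% had Ms4a10 and 78.3% against 84.9% had Cyp2c55. Of the untreated colonocyte-like cells, 36 had an Aqp8 UMI after thinning and held 312 thinned Saa1 UMIs, with Saa1 in 52.8% of them, whereas the other 149 held 3 UMIs, with Saa1 in 2.01%. At 24 h the 4 cells with Aqp8 held 62 Saa1 UMIs and the other 117 held 8, and at 48 h the 10 cells with Aqp8 held 2 and the other 291 held 4. Of the cells with Aqp8, Saa1 was found in 2 of 4 at 24 h and in 2 of 10 at 48 h. The share of colonocyte-like cells with Aqp8 was 19.5%, 3.31% and 3.32%. Aqp8 itself stood at 182, 13.5 and 11.5 CPM in the class, and 15 of its 16 listed markers were lower than untreated at each time (median log2 ratio -2.65 and -1.88), Krt20 being the exception at 87.6, 128 and 155 CPM. The part of these markers in the Saa1 ratio was not tested.

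**Figure D3:**
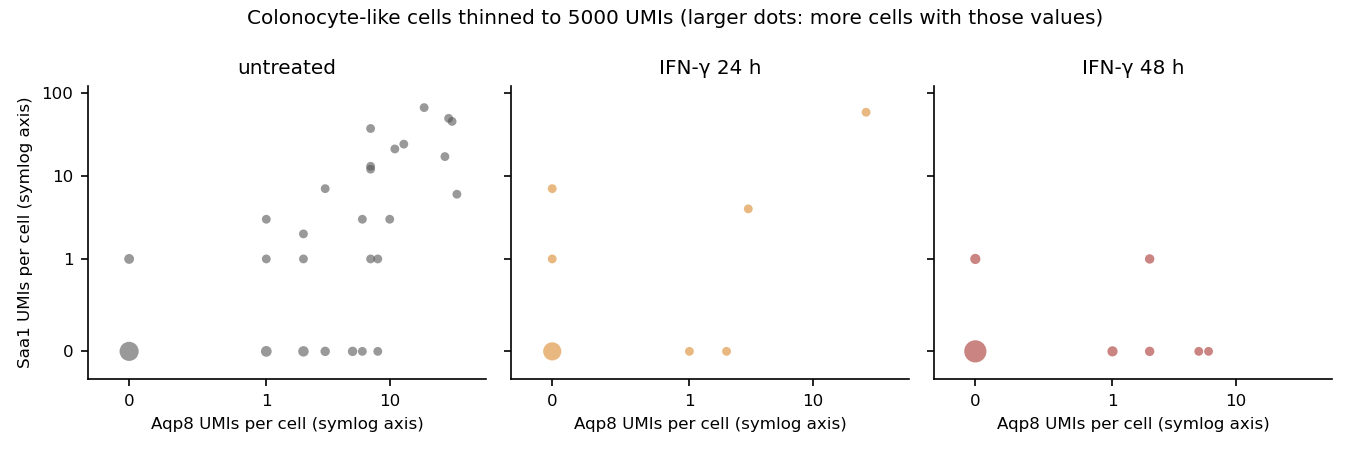
Saa1 UMIs against Aqp8 UMIs per colonocyte-like cell after thinning to 5000 UMIs, for each library (both axes symlog; larger dots stand for more cells with the same values). In the untreated library 19 of the 22 cells with Saa1 have Aqp8; 1 cell at 24 h stands at 58 Saa1 UMIs and no cell at 48 h has more than 1.

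Saa2, the neighbour of Saa1 with a closely related protein, had 33 UMIs untreated, 0 at 24 h and 1 at 48 h. Its level of 0.663 CPM was at least 15.7-fold higher than at 24 h, taken against a floor of 3 counts in that library, and the log2 ratio at 48 h was -4.97 (-10.31 to -2.39). All 12 cells with Saa2 also had Saa1, and all 33 UMIs were in colonocyte-like cells. In the last 500 bases of the Saa1 transcript, 5.32% of stretches of 50 bases also occur in Saa2, so part of the Saa2 reads cannot be told from Saa1.

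Saa3, the serum amyloid of macrophages, fat and epithelium, was spread over more classes of cells. It had 76, 46 and 62 UMIs, or 1.53, 0.647 and 1.31 CPM, and its log2 ratio was -1.24 (-1.80 to -0.69) at 24 h and -0.22 (-0.73 to 0.29) at 48 h, where the interval holds 0. The ratio at 24 h was within 2-fold with TMM factors (-0.78), without the 5% deepest cells (-0.71) and with the mean of the CPM of cells (-0.17). In colonocyte-like cells it had 27, 4 and 4 UMIs, under the minimum of 50, with log2 ratios of -2.95 (-4.93 to -1.43) and -2.08 (-4.06 to -0.56), lower as Saa1 was. In proliferating-like cells it had 33, 22 and 29 UMIs. At 24 h the ratios in the clusters of that class, also under the minimum, were -1.28 (-2.29 to -0.28) and -2.22 (-4.08 to -0.61), lower too. At 48 h they were 0.07 (-0.85 to 0.99) and -0.80 (-2.50 to 0.73), and each interval holds 0. Of 45 untreated cells with Saa3, 4 had Saa1 (8.89%, against 4.35% of all cells, both without thinning). Its level in barcodes under 2000 UMIs, at 2.06, 0.749 and 1.61 CPM, was at or above the pooled level of cells in each library, though 1 cell per library held 18, 10 and 11 of its UMIs, and the part of free RNA in it was not tested.

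The bactericidal lectins and the siderophore binder were close to absent. Reg3b had 2, 7 and 0 UMIs, Reg3g 1, 7 and 0, and Lcn2 6, 4 and 3, out of the totals above. With 0 counts the limit of 3 counts at 48 h is 0.0635 CPM for Reg3b and Reg3g. The log2 ratio at 24 h was 1.29 for Reg3b (-1.10 to 4.60), 2.29 for Reg3g (-0.67 to 7.79) and -1.10 for Lcn2 (-3.37 to 0.98), and each interval holds 0. A response of these 3 genes was not detectable at this depth.

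Nos2, the inducible nitric oxide synthase and the member higher with IFN-γ, stood at 10.3 CPM untreated (9.43 to 11.2), 55.0 at 24 h (53.3 to 56.7) and 60.6 at 48 h (58.4 to 62.8). The log2 ratio was 2.42 (2.28 to 2.55) and 2.56 (2.42 to 2.69), that is 5.34-fold and 5.88-fold. After thinning, 5.01%, 22.1% and 21.5% of cells had a UMI. Barcodes under 2000 UMIs held Nos2 at 7.98, 34.3 and 20.6 CPM, and the part of free RNA in those shares was not tested.

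**Figure D4:**
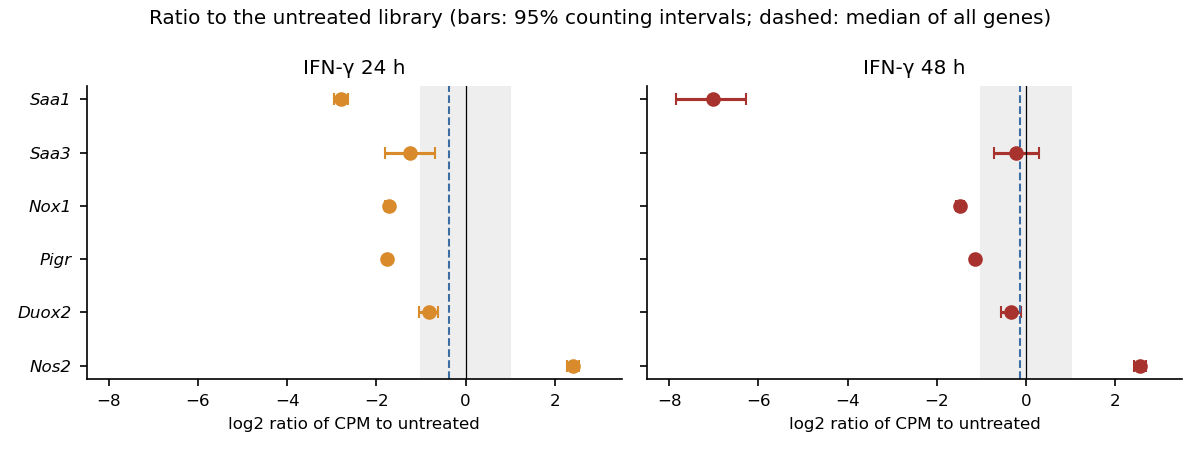
Log2 ratio of CPM to the untreated library at 24 h and 48 h for the 6 members with at least 50 UMIs, with 95% counting intervals (horizontal axis). Grey marks ratios within 2-fold and the dashed line the median of all genes (-0.38 and -0.14); Nos2 lies to the right at both times, Saa1, Nox1 and Pigr to the left.

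Nos2 was higher in colonocyte-like, proliferating-like and goblet-like cells at both times. The log2 ratio at 24 h and 48 h was 2.84 and 3.06 in colonocyte-like cells, 2.53 and 2.56 in proliferating-like cells and 2.64 and 3.71 in goblet-like cells. Its level in colonocyte-like cells went from 10.4 to 74.2 and 86.4 CPM, above the rest of the treated cells by 1.46-fold and 1.54-fold, though not above them untreated (10.4 against 10.3 CPM). Goblet-like cells had 4.13 CPM untreated and 25.8 at 24 h, the lowest of these 3 classes, and 54.1 at 48 h. The clusters joined in this class differed between the times. The log2 ratio of 48 h to 24 h was 1.71 (1.25 to 2.18) in the cluster led by Spink4. In the cluster led by Kcnma1 it was -0.37 (-0.88 to 0.15), which holds 0. This difference was not tested. An unnamed small cluster led by Gm26917, with 25 cells at 24 h and 9 at 48 h, had 221 and 358 CPM on 41 and 23 UMIs. Enteroendocrine-like cells had 11 UMIs untreated, 9 of them in 1 cell, and 0 in the 12 and 21 treated cells, where the exact upper limits are 10.5 and 16.2 CPM.

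Pigr and Nox1 were lower with IFN-γ in colonocyte-like, goblet-like and proliferating-like cells. Pigr, the most abundant member in UMIs, stood at 361 CPM untreated, 106 at 24 h and 163 at 48 h, with log2 ratios of -1.77 (-1.80 to -1.73) and -1.15 (-1.18 to -1.11), and the thinned share of cells with a UMI was 66.4%, 39.5% and 53.0%. With TMM factors the ratio at 48 h was -0.96, within 2-fold. In barcodes under 2000 UMIs Pigr stood at 279, 60.8 and 74.9 CPM, and the part of free RNA in its levels was not tested. In goblet-like cells it was 538, 183 and 259 CPM, in colonocyte-like cells 346, 108 and 184, and in proliferating-like cells 286, 85.5 and 124, in the same order in each library. The ratios in those classes lay between -1.56 and -1.74 at 24 h and between -0.91 and -1.21 at 48 h. In those 3 classes Pigr stood higher at 48 h than at 24 h, by 0.51 to 0.77 on the log2 scale. In the largest, unnamed cluster, led by Angpt2, the ratio of 48 h to 24 h was -0.02 (-0.14 to 0.11) on 2085 and 726 UMIs. The difference was not tested.

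Nox1, the superoxide-forming oxidase of colon crypts, stood at 74.4, 22.5 and 26.8 CPM, with log2 ratios of -1.73 (-1.81 to -1.64) and -1.47 (-1.57 to -1.38) and thinned shares of 27.1%, 12.1% and 13.4%. In barcodes under 2000 UMIs Nox1 stood at 65.8, 15.1 and 9.32 CPM, and here too the part of free RNA was not tested. It was lower in colonocyte-like cells (41.8, 15.3 and 17.8 CPM) than in the other cells of each library (83.9, 24.1 and 28.4 CPM). An unnamed, shallow cluster led by Angpt2, Sorbs2os and 1600010M07Rik, in which 9 of 12 stem markers were raised but none led, stood at 163, 51.8 and 38.5 CPM, the highest cluster untreated. An unnamed cluster led by Slc2a13, St3gal4 and Pparg stood at 87.2, 52.9 and 51.6 CPM, the highest at 48 h.

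Duox2, the peroxide-forming dual oxidase, was within 2-fold of untreated at both times, at 7.97, 4.49 and 6.31 CPM, with log2 ratios of -0.83 (-1.05 to -0.61) and -0.34 (-0.56 to -0.12). Among the named classes its level was highest in goblet-like cells, which held 40.8% of its untreated UMIs and 13.1% of all UMIs, at 24.8 CPM against 5.43 CPM in the other cells. Goblet-like cells stood at 7.81 CPM at 24 h and 16.9 at 48 h, lower than untreated by -1.67 (-2.22 to -1.14) and -0.55 (-1.01 to -0.11) on the log2 scale. Colonocyte-like cells had 4.92, 5.06 and 8.40 CPM, with log2 ratios of 0.04 (-0.50 to 0.59) and 0.77 (0.22 to 1.33). Among members with enough UMIs, Saa1 alone was over 2-fold higher in colonocyte-like cells than in the other cells, untreated and at 24 h. Other clusterings or averages added Saa3, Nos2 or Duox2.

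**Figure D5:**
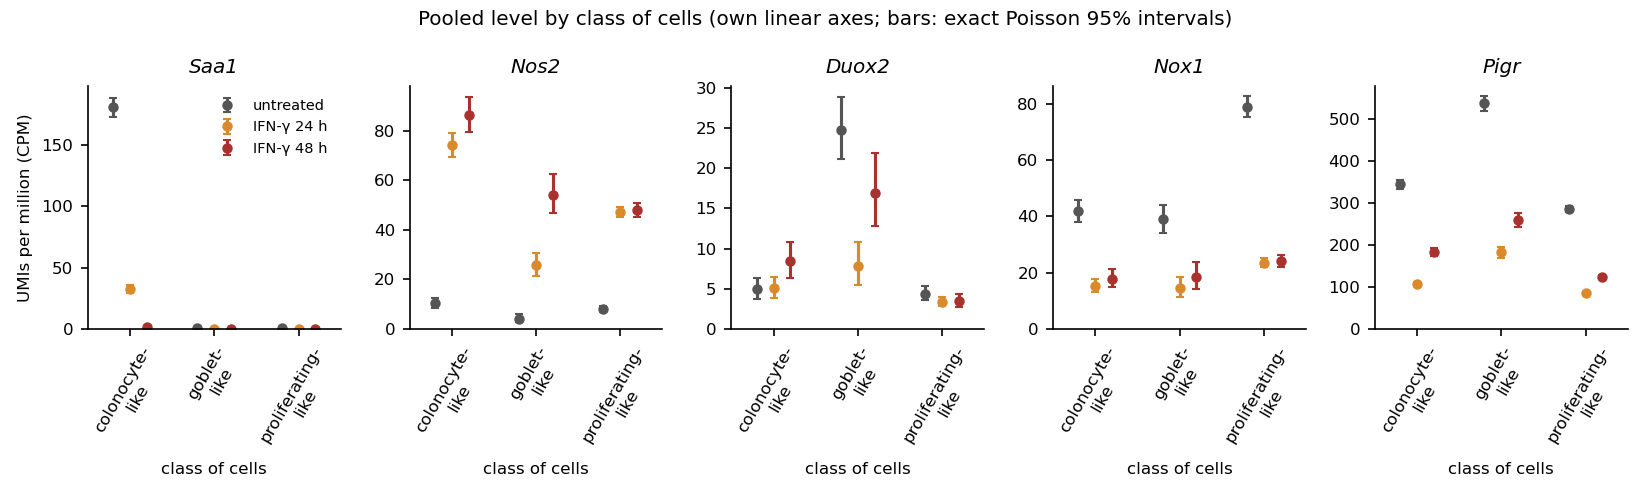
Pooled level (CPM, linear axes that differ between panels) of Saa1, Nos2, Duox2, Nox1 and Pigr in colonocyte-like, goblet-like and proliferating-like cells of each library, with exact Poisson 95% intervals. Saa1 is near 0 outside colonocyte-like cells, Duox2 is highest in goblet-like cells in each library, and Nos2 is higher with IFN-γ in all 3 classes.

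The gene lists around the members are given by their counts of genes higher and lower by over 2-fold, to be read against the shares of all genes above (2.97% and 19.9% at 24 h, 4.18% and 12.1% at 48 h). Of 13 other antimicrobial and mucosal defence genes with enough UMIs at 24 h, 1 was higher and 6 lower, and of 14 at 48 h, 2 and 5: the lysozyme Lyz1 stood at 114, 6.57 and 0.741 CPM, the goblet lectin Zg16 at 60.6, 22.2 and 0.550, and the secretory lectin Reg4 at 120, 3.62 and 1.23. The 11 goblet markers were all lower by over 2-fold at both times. Of the other acute-phase genes, 1 of 12 had enough UMIs, the ferroxidase Cp, at 13.3, 3.25 and 9.65 CPM.

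Among oxidase partners, 2 of 7 were higher at 24 h, 1 of 8 at 48 h and 0 lower. Duoxa2, the maturation factor that brings Duox2 to the surface, stood at 2.07, 5.19 and 2.88 CPM, a log2 ratio of 1.33 (1.01 to 1.66) at 24 h. Duox2 itself was at -0.83 there, and at -0.37 with TMM factors. Ncf4, a phagocyte oxidase subunit, stood at 0.502, 1.31 and 2.07 CPM, and the GTPase Rac1 at 230, 394 and 326 CPM. In nitric oxide synthesis and arginine supply 0 of 7 genes were higher and 2 lower at each time. Arg1 and Arg2, which use up arginine, had log2 ratios of -1.92 and -1.43 at 24 h on 23 and 36 UMIs. Gch1, which makes the cofactor of Nos2, had -0.55 at 24 h and -1.01 at 48 h, beside a median of -0.38 and -0.14 over all genes. TMM factors move such ratios up by 0.46 and 0.19, so Gch1 was not set apart from most genes at 24 h.

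Of 17 receptors and regulators, 2 were higher and 3 lower at 24 h, and 1 and 2 at 48 h. The interleukin-1 receptor Il1r1 was at 4.18, 0.577 and 0.593 CPM, the acute-phase transcription factor Cebpd at 44.9, 23.4 and 15.8, and the bacterial lipoprotein receptor Tlr2 at 3.45, 7.12 and 9.69. Of 7 genes that remove peroxide, 0 were higher, 1 was lower at 24 h and 2 at 48 h, among them catalase (Cat), at 21.3, 8.67 and 10.2 CPM. Prdx6 had log2 ratios of -0.66 and -1.04, and Gpx1 had 0.05 and -0.36.

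Over the thinned cells of a library, the genes most like Nos2 were Trim15, Nupr1 and Ndrg1 at 24 h (Pearson r of 0.34, 0.34 and 0.33 over 917 cells), those most like Nox1 were Cftr, Slc12a2 and Clca3b in the untreated library (0.31, 0.29 and 0.28 over 1058 cells), and those most like Pigr were Oit1, Nr3c2 and Foxp1 (0.31, 0.30 and 0.27). The cells share a library and the counts are sparse, so these values are descriptions and no finding. The same rule gave lower correlations of 0.10 to 0.23 for the other members and libraries it covered.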

How the data were processed

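Per the labels and the study's methods, the authors made libraries from sorted live organoid cells with the 3′ v3 chemistry of 10x Genomics, and their processing notes name Cell Ranger 6.0.1 and mm10. They deposited UMI counts per gene and barcode, unnormalised. Barcodes go down to 1390 UMIs untreated, 851 at 24 h and 1624 at 48 h, and none with fewer are present. The annotation release is not given in the sources used here.

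A barcode counted as a cell from 5000 UMIs and 400 genes up, if mitochondrial genes gave no more than 15% of its UMIs. Counts were summed per library or class and divided by the total (CPM). Intervals at 95% are exact Poisson for levels, conditional binomial for ratios and Clopper-Pearson for shares, and cover counting error only. Genes needed 50 UMIs over 2 libraries to be compared, and a count of 0 was set against 3 counts. The ratios and intervals were tried only on simulated pooled Poisson counts, the model that the intervals assume. Those counts leave out the clumping of UMIs in few cells. The trial therefore cannot show that the intervals are wide enough for genes such as Saa1. Cells were clustered with Seurat 5.3.0 (CCA integration over 30 dimensions, 2000 variable genes without the members, 20 components, resolution 0.5) on R 4.3.3. A cluster was named when at least 3 markers were raised and 1 was among its 10 leading genes, the last condition added once the clusters had been seen. It left unnamed 1 cluster with raised proliferation markers (1.98%, 4.91% and 1.84% of cells). No doublet caller was run, and the 5% deepest cells were left out as an alternative. Classes were then compared as summed counts, without a test. Genes named beside the members are the 3 with the largest absolute ratio of each list and the 3 most correlated with a member found in at least 5% of thinned cells. Members and lists were chosen with earlier results of these data known. Positions come from GENCODE vM21, upstream windows from RefSeq. A gene of the IFN-γ response list is not reported here, nor are that list's summary values.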

Additional observations from a re-analysis of the deposited data

Results flagged for a closer look

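Duox2 at 48 h of IFN-γ stood on opposite sides of its untreated level in 2 classes of cells, with a log2 ratio of 0.77 in colonocyte-like cells (59 UMIs against 55) and of -0.55 in goblet-like cells (58 UMIs against 162). The intervals for counting error are 0.22 to 1.33 and -1.01 to -0.11. The goblet-like class joins 2 clusters in changing shares, with ratios of -1.17 (-2.05 to -0.34) and, in the cluster led by Spink4, of -0.33 (-0.89 to 0.20), which holds 0. The shift of 0.19 that TMM factors bring would take the upper limit of the class past 0. The difference between the classes was not tested, since each condition has 1 library, and goblet markers were also lower at 48 h (11 of 11 by over 2-fold), whose part in it was not tested.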

How the results depend on the processing

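No paired analysis was possible because each condition has 1 library, and no replicate could be left out. Another scaling moved ratios to untreated up by 0.46 at 24 h (0.46 with median-of-ratios factors) and by 0.19 (0.18) at 48 h, and took 0.27 (0.28) from the ratio between the times. It left the counts of members past 2-fold against untreated within 1.5 times of the main ones. Without a minimum count, 9 members were past 2-fold at 24 h, of which 3 were higher, by counts of a few UMIs. Between 48 h and 24 h, 1 member instead of 2 was past 2-fold, and 0 instead of 1 were higher, with TMM factors, median-of-ratios factors, a minimum of 2000 or of 10000 UMIs, without the 5% deepest cells and with the mean of the CPM of cells; without the 1% of cells with the most of the gene, 0 of 4 members were past it, 0 higher and 0 lower. The ratio between the times turned to -0.13 and -0.14 for Nos2 and to -0.0149 and -0.0271 for Nox1 under the 2 scalings, and to -0.41 for Nos2 and -0.13 for Duox2 with the mean of the CPM of cells; the cause was not tested. Unthinned, 5 of 6 members in the untreated library had more than 50% of their UMIs in 10% of cells, as more members passed the minimum. In colonocyte-like cells, 2 members were 2-fold higher untreated at resolution 1 and with each library clustered alone (Saa1 and Saa3), 2 at 48 h at resolution 1 (Nos2 and Duox2, without Saa1, which is under the minimum), and at 24 h 2 without the 5% deepest cells (Saa1 and Nos2) and 3 with the mean of the CPM of cells (Saa1, Nos2 and Duox2). Naming clusters without a leading marker, an alternative added after the data were seen, left the 3 counts as they were. Over the alternatives the ratio of Saa1 lay between -5.74 and -2.02 at 24 h and between -7.22 and -6.59 at 48 h. Without the 1% of cells with the most Saa1, no Saa1 UMI was left at 48 h, and the floor of 3 counts gave -5.88. The -5.74 at 24 h, from the same alternative, rests on few UMIs. The ratio of Nos2 lay between 2.40 and 2.88 at 24 h and between 2.16 and 2.74 at 48 h. Saa3 at 48 h lay between -0.48 and 0.37. For genes near 0 the limit of 3 counts is 0.0602, 0.0422 and 0.0635 CPM.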
